A study of Mus musculus with 8 samples.

Results

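The genes described are the mouse cyclins of classes A, B, D, E and F, the cyclin-dependent kinases (CDKs), the E2F transcription factors, the RB family and their direct regulators. Most belong to the core engine of the cell cycle. The CDKs also include 7 that act mainly on transcription and 7 others that are grouped apart. All of these genes were chosen by gene name, from a fixed pattern of symbols. No cutoff on a measured value was applied, but the choice was made with earlier results of these data known. The pattern matched 52 of the 17922 rows of the deposited expression table, each with a single row and an identifier that carries the same symbol in the reference name table. Of these, 50 reached at least 1 FPKM (fragments scaled to gene length and sequencing depth) in at least 1 library, and 48 did so in all 4. Ccnb3, a B-type cyclin known from meiosis, and Cdk15 stayed under 1 FPKM throughout. CDK inhibitors and the mitotic factor Foxm1 lie outside the pattern and enter only as neighbouring genes of the pathway.

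Cells enter the cycle when D-type cyclins bind CDK4 or CDK6 and phosphorylate the RB family, which otherwise holds E2F factors at their target genes. Freed E2Fs drive genes of the G1/S transition, cyclin E with CDK2 carries cells into S phase, cyclin A acts through S and G2, and cyclin B with CDK1 starts mitosis. The anaphase-promoting complex (APC/C) then destroys mitotic cyclins through its activators. Fibroblasts depend on growth factors to pass G1, whereas mouse pluripotent stem cells are known for a short G1 and a large share of cells in S phase.

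RNA was measured in 4 libraries, 1 per stage, from C57BL/6 cells with a doxycycline-driven (tetO) OSKM cassette, which codes for the factors Pou5f1, Sox2, Klf4 and Myc. The stages were embryonic fibroblasts (MEFs) from fetuses of gestational day 13.5 (day 0), such cells at day 3 and at day 6 after doxycycline was added, and fully reprogrammed iPSCs. Doxycycline was given in a medium with knockout serum replacement, LIF and CHIR99021, an inhibitor of GSK3. The sources used here do not give the medium of uninduced MEFs, the number of animals pooled, the number of iPSC lines or whether doxycycline was present in the iPSCs.

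Since there was 1 library per stage, no value has an error and no difference was tested. Fragment totals are not listed. The spacing of the lowest values put the day 3 library at roughly 0.637 of the fragments of the MEF library, with day 6 at 1.04 and iPSCs at 1.01. The labels were checked with cell type markers. All 10 fibroblast markers were at 1 FPKM or more in MEFs, at day 3 and at day 6, with a summed level of 5915 to 6429 FPKM, against 73.9 in iPSCs, where 7 of 10 were. The 10 pluripotency markers summed to 1.34, 4.87 and 11.1 FPKM in the first 3 libraries and to 2015 in iPSCs. At day 3 and day 6, 2 of them were at 1 FPKM or more, Pou5f1 and Sox2, both factors of the cassette. In the first 3 libraries Pou5f1 was at 0.226, 3.03 and 8.56 FPKM and Sox2 at 0.411, 1.19 and 2.03. Nanog was at 0.398, 0.270 and 0.241. Whether the reads of Pou5f1 and Sox2 came from the cassette was not tested. Markers of macrophages and leukocytes (9 of 10 found) summed to 86.5, 63.4 and 69.1 FPKM in the first 3 libraries, with 8 at 1 FPKM or more in each. They summed to 51.6 in iPSCs, where 2 were, Laptm5 at 38.5 and Cd68 at 11.9, while Ptprc, Emr1 and Tyrobp were listed at 0 and Lyz2 went from 52.9 in MEFs to 0.0298. Markers of endothelium (5 of 7 found) summed to 0.453, 1.41, 2.15 and 29.0 FPKM, the last mostly Pecam1 at 26.2, and those of epithelium to 3.10, 6.47, 11.2 and 710. Their part in the differences given here was not tested. In bulk RNA, fewer cells in a phase and less RNA per cell cannot be told apart.

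The rule of size used throughout needs log2(FPKM + 1) values that differ by at least 1 and a higher library with at least 1 FPKM. Genes that meet it are called higher or lower. During the first 6 days no member passed this rule. Between MEFs and day 3, 0 of 48 members compared were higher and 0 lower, where 0.17% of all rows compared were higher and 0.0511% lower. Between day 3 and day 6 the members' counts were again 0 and 0 of 48, with 0.457% and 0.398% of all rows. Against MEFs, day 6 gave 0 and 0 of 48, with 0.77% and 0.584% of all rows. So few rows passed in these contrasts that a count of 0 among 48 genes sets the members apart from nothing.

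In iPSCs, 26 members were past the rule against MEFs. Of 50 compared, 19 (38.0%) were higher and 7 (14.0%) lower, where 21.1% of all rows were higher and 25% lower. Against day 6, 18 (36.0%) were higher and 6 (12%) lower, with 20.4% and 23.4% of all rows. The median difference of the members was 0.80 against MEFs and 0.52 against day 6, on the log2(FPKM + 1) scale, beside -0.05 and -0.02 for all rows compared. Rescaling the libraries to the same upper quartile moved the median of all rows against MEFs from -0.05 to 0.11, and differences smaller than this shift have no reliable sign. At a pseudocount of 5, which shrinks differences of low values, Ccna1, Cdc25a, Cdk2, E2f7, E2f8, Pkmyt1 and Skp2 were no longer higher than in MEFs, and Cdk5, Cdk6 and Rbl2 no longer lower. These contrasts share libraries and are not independent of each other.

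**Figure D1:**
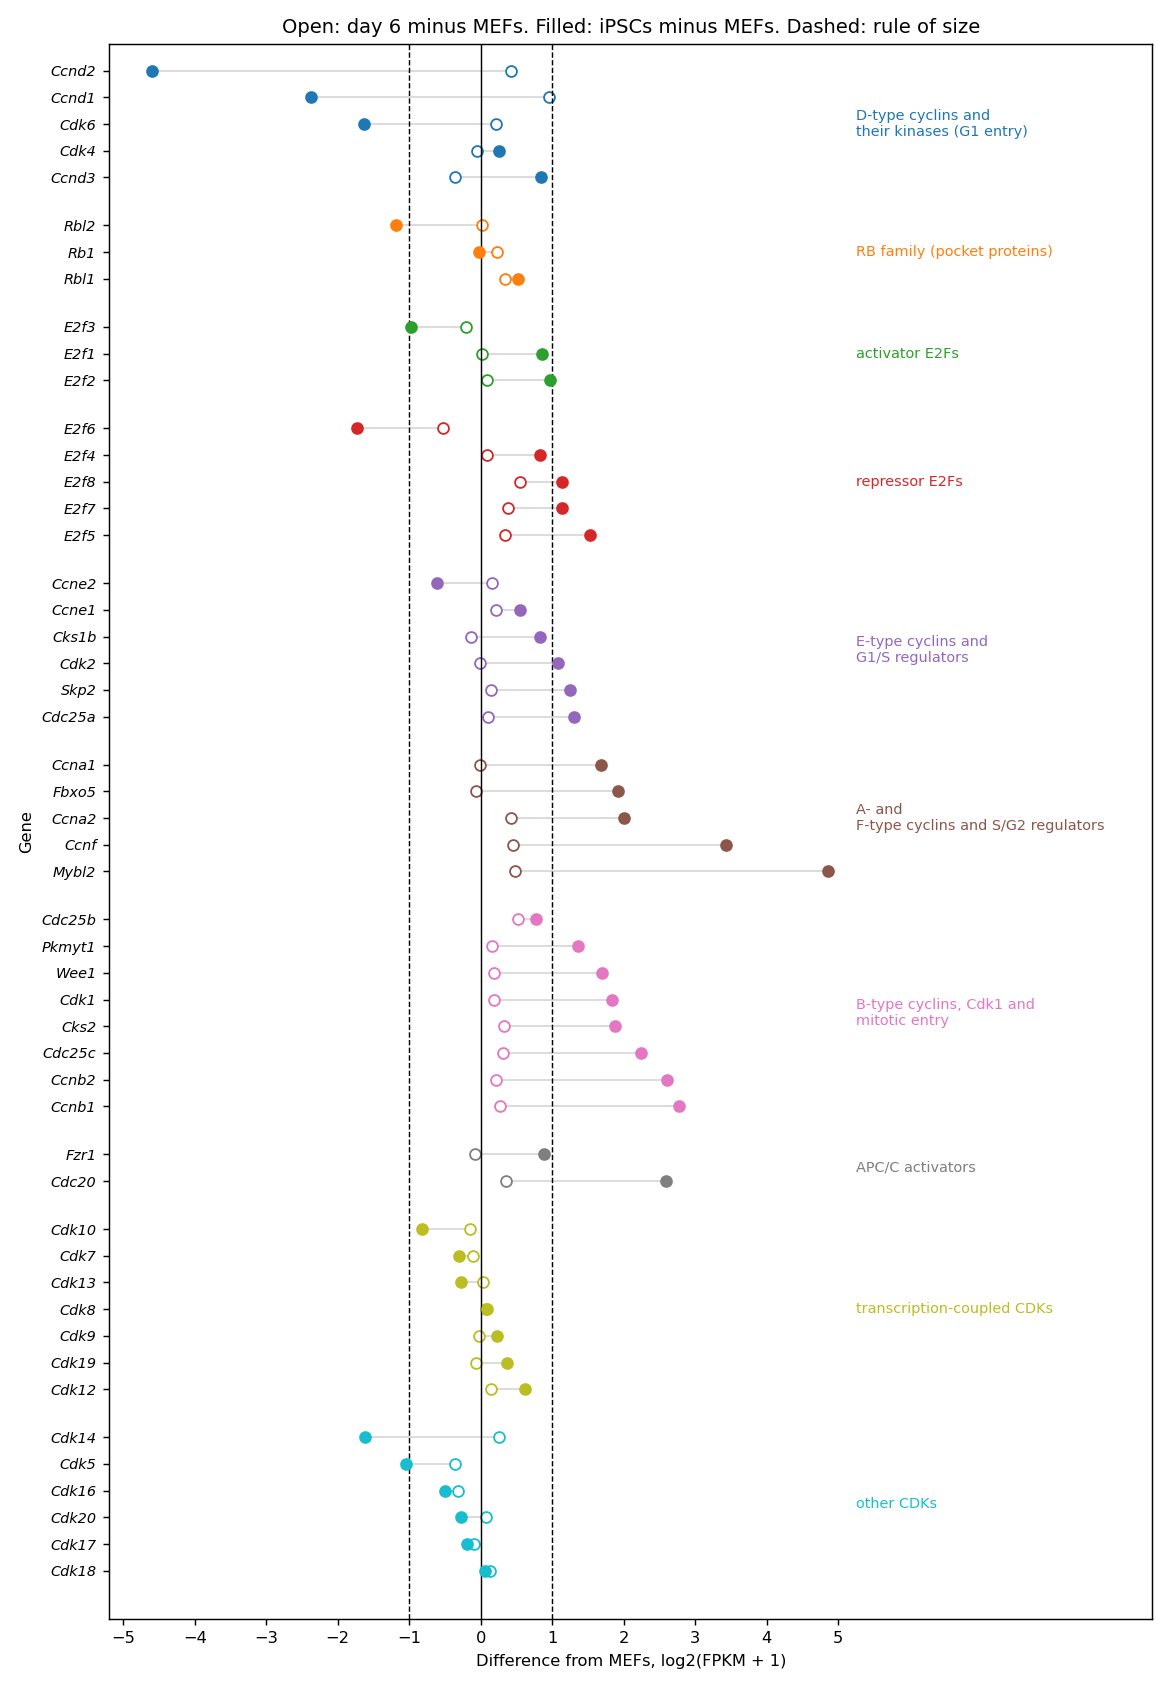
Difference from the MEF library on the log2(FPKM + 1) scale (horizontal axis) for the 50 members that reached 1 FPKM, grouped by role. Open points are day 6, filled points are iPSCs, and dashed lines mark the rule at 1 and -1. All open points lie within the dashed lines, and the filled points run from -4.60 (Ccnd2) to 4.86 (Mybl2).

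The D-type cyclins, which link growth factor signals to G1, included the lowest of all the differences in iPSCs, and the members of the family did not go the same way. Across MEFs, day 3, day 6 and iPSCs, in the order kept below, Ccnd1 was at 82.4, 100.1, 160.1 and 15.1 FPKM. Ccnd2 was at 100.3, 130.5, 134 and 3.17 FPKM. Both were highest during induction and lowest in iPSCs, where Ccnd2 stood 31.7-fold and Ccnd1 5.47-fold below MEFs in FPKM (log2 differences of -4.60 and -2.38). Ccnd3 was at 50.1, 45.1, 39.0 and 90.6 FPKM, lowest at day 6 and highest in iPSCs. It was past the rule against day 6 (log2 difference 1.20), and against MEFs (0.84) only after rescaling to the same upper quartile.

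Within a library, shares of a family do not depend on how libraries are scaled to each other. Ccnd1, Ccnd2 and Ccnd3 made up 35.4%, 43.1% and 21.5% of the summed D-type FPKM in MEFs. At day 6 the shares were 48.0%, 40.3% and 11.7%, and in iPSCs 13.8%, 2.91% and 83.2%. The leading D-type cyclin was thus Ccnd2 in MEFs and at day 3, Ccnd1 at day 6 and Ccnd3 in iPSCs. The sum over all D-type cyclins was 233, 276, 333 and 109 FPKM.

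Ccnd1 had the largest difference of all members within the first 6 days. Its log2 difference was 0.28 from MEFs to day 3 and 0.67 from day 3 to day 6. At 0.95 for day 6 against MEFs it lay just under the rule and passed it when the libraries were rescaled to the same upper quartile or the same total.

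The kinase partners of the D-type cyclins separated in the same library. Cdk4 was at 254, 224, 244 and 305 FPKM in order of stage, and was within the rule in every contrast. Cdk6 was at 8.83, 10.5, 10.4 and 2.16 FPKM, past the rule in iPSCs against MEFs (log2 difference -1.64) and against day 6 (-1.84). Cdk4 transcripts were 28.8 times as abundant per length as Cdk6 transcripts in MEFs and 141 times in iPSCs.

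**Figure D2:**
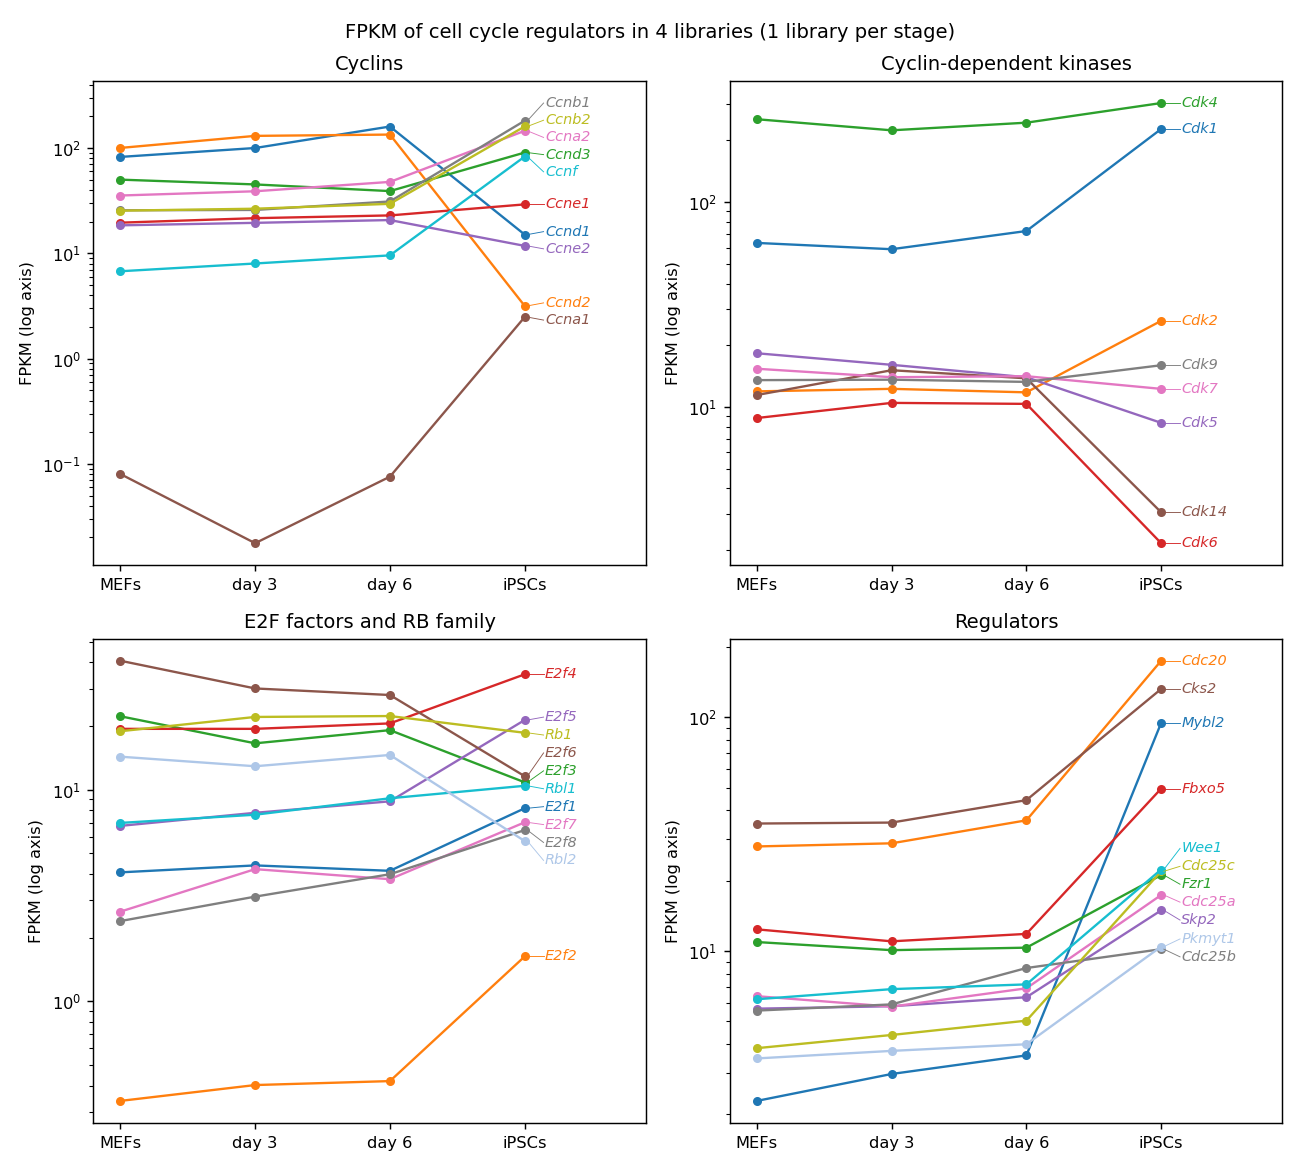
FPKM (vertical log axis) of 40 members in the 4 libraries (horizontal axis), with 1 point per library and lines joining the points of a gene. Most lines are nearly level from MEFs to day 6, and then separate, with Ccnd2 going from 134 to 3.17 FPKM and Mybl2 going from 3.58 to 94.5.

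The RB family, the targets of these kinases, differed between libraries in composition more than in sum. Rb1 was at 18.9, 22.1, 22.3 and 18.6 FPKM. Rbl1, which codes for p107, was at 6.97, 7.62, 9.12 and 10.4 FPKM. Both were within the rule in every contrast. Rbl2, which codes for p130, the pocket protein best known from resting cells, was at 14.3, 12.9, 14.6 and 5.72 FPKM, and was lower in iPSCs than in MEFs (log2 difference -1.19) and than at day 6 (-1.21). Its share of the family was 35.6% in MEFs and 16.5% in iPSCs, and that of Rbl1 was 17.3% and 30.0%. The family sum was 40.2 FPKM in MEFs and 34.8 in iPSCs.

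Of the activator E2Fs, which switch on G1/S genes, none passed the rule. E2f1 was at 4.07, 4.39, 4.14 and 8.18 FPKM across the stages, with the first 3 libraries close together and iPSCs highest. E2f2 was at 0.339, 0.402, 0.420 and 1.63 FPKM. E2f3 went the other way, with 22.2, 16.6, 19.1 and 10.8 FPKM. The differences of iPSCs from MEFs were 0.86, 0.97 and -0.97, all close to the rule. E2f1 and E2f2 passed it after rescaling to the same upper quartile or the same total, E2f2 also by median of ratios and at a pseudocount of 0.1, and E2f3 only at a pseudocount of 0.1.

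The repressor E2Fs held 3 genes higher and 1 lower among 5 in iPSCs against MEFs, where 21.1% of all rows were higher and 25% lower. E2f4, the main partner of p130, was at 19.4, 19.4, 20.6 and 35.1 FPKM and within the rule (0.82). E2f5 was at 6.75, 7.78, 8.82 and 21.4 FPKM and past the rule (1.53). The atypical factors E2f7 and E2f8, which bind DNA without a DP partner and are themselves E2F targets, were at 2.66, 4.22, 3.78 and 7.02 FPKM and at 2.40, 3.13, 3.99 and 6.45 FPKM. They passed the rule against MEFs (1.13 each) but not against day 6 (0.75 and 0.58).

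E2f6, a repressor that works with Polycomb proteins, was the leading E2F of MEFs and the only one of the family that was lower by the rule as reported. Its levels were 40.7, 30.1, 28.0 and 11.6 FPKM, and it so was lower at each later stage. The log2 difference of iPSCs from MEFs was -1.73. Of the summed E2F FPKM it made up 41.3%, 35.0%, 31.5% and 11.3% by stage. E2f4 had 19.7% in MEFs and led in iPSCs with 34.4%, followed by E2f5 with 20.9%. The sum over the 8 E2F genes was 98.6, 86.0, 88.9 and 102 FPKM.

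**Figure D3:**
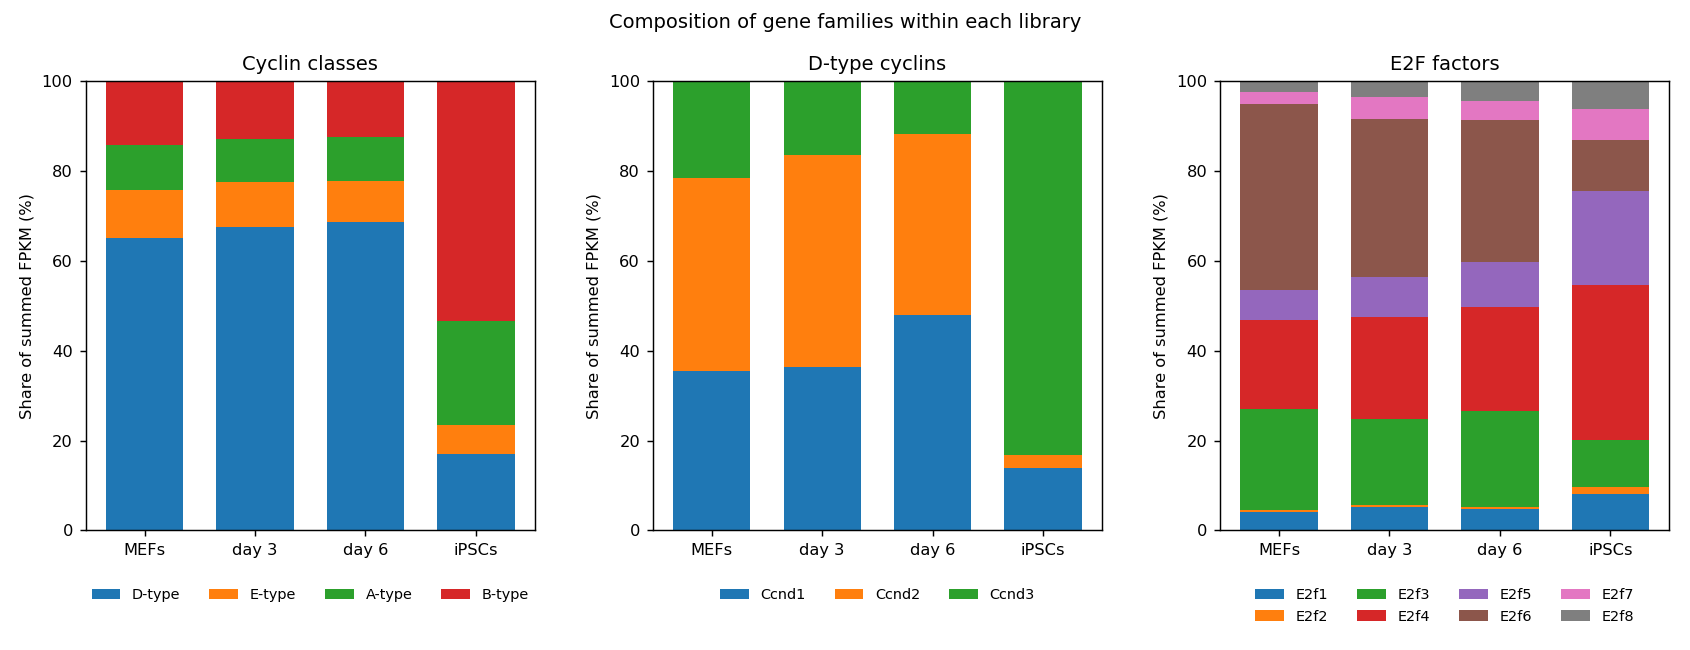
Share of summed FPKM (vertical axis, percent) within each library (horizontal axis) for the D-, E-, A- and B-type cyclins together, for the 3 D-type cyclins and for the 8 E2F factors. Each bar adds up to the whole family in 1 library. The D-type share of cyclins was 65.1% in MEFs and 17.0% in iPSCs, Ccnd3 took 83.2% of the D-type sum in iPSCs, and E2f6 went from 41.3% to 11.3% of the E2F sum.

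At the G1/S transition the E-type cyclins themselves were within the rule. Ccne1 was at 19.6, 21.6, 22.9 and 29.2 FPKM, and Ccne2 at 18.4, 19.5, 20.7 and 11.8 FPKM. The 2 genes were level with each other through day 6 and parted in iPSCs, where Ccne1 held 71.2% of their sum against 51.5% in MEFs. Their sum was between 38.0 and 43.6 FPKM in all 4 libraries.

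Of the 4 regulators around cyclin E, 3 were higher in iPSCs. Cdk2, its kinase, was at 11.9, 12.3, 11.8 and 26.3 FPKM. Cdc25a, the phosphatase that activates it, was at 6.41, 5.78, 6.92 and 17.4 FPKM. Skp2, the ubiquitin ligase subunit that marks the inhibitor p27 for destruction, was at 5.67, 5.80, 6.34 and 14.9 FPKM. All 3 were level from MEFs to day 6 and past the rule in iPSCs against MEFs (1.08, 1.31 and 1.26). Cks1b, the partner of SKP2 in that step, was at 49.8, 51.2, 45.2 and 89.3 FPKM and within the rule against MEFs (0.83), which it passed after rescaling to the same upper quartile. Of the 6 genes of this group 3 were higher and 0 lower, with a median of 0.96. All rows compared had 21.1% higher and 25% lower, with a median of -0.05.

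All 5 genes of the S and G2 group were higher in iPSCs, against MEFs and against day 6, where 21.1% and 20.4% of all rows were. Mybl2, which codes for the B-MYB factor that joins the MuvB complex to drive late cell cycle genes, had the largest difference of all members between iPSCs and MEFs. Its levels were 2.28, 2.98, 3.58 and 94.5 FPKM, a 41.4-fold ratio of iPSCs to MEFs (log2 difference 4.86). Among rows with at least 1 FPKM in any library it stood at percentile 20.4 in MEFs and 94.6 in iPSCs. Ccnf, the cyclin F subunit of an SCF ubiquitin ligase, was at 6.76, 8.01, 9.56 and 83.0 FPKM (log2 difference 3.44).

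Ccna2, the A-type cyclin of dividing somatic cells, was at 35.4, 38.9, 47.7 and 146 FPKM, lowest in MEFs and highest in iPSCs (2.01). Fbxo5, which codes for the APC/C inhibitor EMI1, was at 12.4, 11.0, 11.8 and 49.5 FPKM (1.92). Ccna1, known from the germ line, was at 0.0802, 0.0177, 0.0757 and 2.48 FPKM. It was thus near 0 until iPSCs, passed the rule (1.69) at a low level, and did not at a minimum of 5 FPKM. It made up 1.67% of A-type FPKM in iPSCs.

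The genes of mitotic entry were higher in iPSCs in 7 of the 8 members that reached 1 FPKM, with a median of 1.86 against MEFs. All rows compared against MEFs had 21.1% higher and 25% lower, with a median of -0.05. Ccnb1 was at 25.6, 25.8, 31.1 and 182 FPKM and Ccnb2 at 25.4, 26.5, 29.5 and 160.4 FPKM. The pair stayed near equal shares in every library, with Ccnb1 at 50.2% of B-type FPKM in MEFs and 53.1% in iPSCs. Cdk1, their kinase, was at 63.2, 58.9, 72.3 and 228 FPKM (log2 difference 1.83). Cks2, a small protein that binds the CDK1 complex, was at 35.1, 35.4, 44.2 and 132 FPKM (1.88).

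Both kinases that restrain CDK1 were higher in iPSCs, as was 1 of the 2 CDC25 phosphatases of this group. Wee1 was at 6.22, 6.87, 7.20 and 22.3 FPKM (1.69) and Pkmyt1, which codes for the membrane-bound MYT1 kinase, at 3.47, 3.74, 3.99 and 10.4 FPKM (1.36). Cdc25c, an activating phosphatase, was at 3.84, 4.37, 5.03 and 21.9 FPKM (2.24). Cdc25b, another, was at 5.56, 5.91, 8.45 and 10.2 FPKM, within the rule against MEFs (0.77), and had its largest step before iPSCs (0.45 from day 3 to day 6). Cdc25b led the family sum at day 6 with 41.4%, and Cdc25c in iPSCs with 44.3%.

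Both APC/C activators were highest in iPSCs. Cdc20, which acts at anaphase onset, was at 28.0, 28.9, 36.2 and 174 FPKM (log2 difference 2.60). Fzr1, which codes for CDH1 and keeps the complex active in G1, was at 10.9, 10.1, 10.3 and 21.1 FPKM (0.89), within the rule as deposited and past it after rescaling to the same upper quartile or the same total.

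Over the 4 main cyclin classes, the leading class differed between day 6 and iPSCs. In MEFs the D, E, A and B classes held 65.1%, 10.6%, 9.93% and 14.3% of the summed cyclin FPKM. At day 6 they held 68.7%, 8.99%, 9.84% and 12.5%. In iPSCs they held 17.0%, 6.39%, 23.1% and 53.5%. The D class thus led in each of the first 3 libraries and the B class in iPSCs. Ccnb1 stood at 0.311 of the Ccnd1 level in MEFs, 0.194 at day 6 and 12.1 times it in iPSCs. The iPSC value is that of 1 library, and the share of cells in each phase was not measured.

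The promoters of 4 late-cycle genes are shown, those with a CHR match before the start, to print what these matches look like. They were picked for the match, so they do not stand for the group, and genes without one, such as Ccnb1 and Cks2, are not shown. Late-cycle promoters are known for a CHR element, bound by the MuvB complex, near CCAAT boxes, bound by NF-Y, while G1/S promoters are known for E2F sites. Sequences are those of RefSeq on build GRCm38.p6, which is not the mm9 build of the expression table. The reference table held 44 promoters for 39 of the 52 members. The others were Ccna2, Ccnd1, Ccnd2, Ccne2, Cdc25c, Cdk5, Cdk17, Cdk19, E2f4, E2f5, Pkmyt1, Rb1 and Wee1. The 250 bases before the start are printed 5′ to 3′ on the gene's strand, with matches to the searched motifs in capitals. The regions are chr17:24251410-24251659 for Ccnf, chr4:118437344-118437593 for Cdc20, chr9:70421555-70421804 for Ccnb2 and chr10:69352913-69353162 for Cdk1 (all minus strand), and chr2:163054385-163054634 for Mybl2 and chr5:3343643-3343892 for Cdk6 (plus strand). Mybl2 is added as the member with the largest positive difference from MEFs and Cdk6 as a member that was lower in iPSCs.
Ccnf: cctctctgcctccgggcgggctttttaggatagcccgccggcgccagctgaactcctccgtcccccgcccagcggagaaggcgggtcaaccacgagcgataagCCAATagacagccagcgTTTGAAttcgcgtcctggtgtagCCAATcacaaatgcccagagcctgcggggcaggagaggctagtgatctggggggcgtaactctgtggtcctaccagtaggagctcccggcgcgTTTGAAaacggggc
Cdc20: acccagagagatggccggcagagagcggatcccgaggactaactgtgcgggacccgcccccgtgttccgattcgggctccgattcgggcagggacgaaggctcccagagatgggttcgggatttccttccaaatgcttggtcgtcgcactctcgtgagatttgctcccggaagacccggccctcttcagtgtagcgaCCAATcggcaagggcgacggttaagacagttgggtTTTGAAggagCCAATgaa
Ccnb2: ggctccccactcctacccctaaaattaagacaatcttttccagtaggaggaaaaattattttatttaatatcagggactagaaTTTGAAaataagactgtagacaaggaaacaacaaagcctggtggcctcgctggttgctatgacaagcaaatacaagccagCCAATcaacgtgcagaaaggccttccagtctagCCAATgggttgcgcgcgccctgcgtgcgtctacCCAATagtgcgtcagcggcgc
Cdk1: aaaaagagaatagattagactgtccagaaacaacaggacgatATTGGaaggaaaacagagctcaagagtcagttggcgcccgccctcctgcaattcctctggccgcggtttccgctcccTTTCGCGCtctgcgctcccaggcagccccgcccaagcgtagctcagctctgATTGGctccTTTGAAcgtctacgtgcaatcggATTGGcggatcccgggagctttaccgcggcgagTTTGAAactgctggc
Mybl2: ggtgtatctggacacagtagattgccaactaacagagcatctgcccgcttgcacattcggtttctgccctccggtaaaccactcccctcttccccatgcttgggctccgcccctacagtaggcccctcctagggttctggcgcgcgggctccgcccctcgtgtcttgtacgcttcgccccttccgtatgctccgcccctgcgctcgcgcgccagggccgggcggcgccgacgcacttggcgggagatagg
Cdk6: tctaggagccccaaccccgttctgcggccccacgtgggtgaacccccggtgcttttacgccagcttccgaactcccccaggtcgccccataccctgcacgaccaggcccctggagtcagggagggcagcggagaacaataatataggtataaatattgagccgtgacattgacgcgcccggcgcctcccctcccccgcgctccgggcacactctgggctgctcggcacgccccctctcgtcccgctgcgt

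The motifs searched on both strands were the E2F site (TTTCGCGC, TTTCCCGC, TTTGGCGC or TTTGCCGC), the CHR (TTTGAA or TTCGAA) and the CCAAT box (CCAAT), in windows from 250 bases before to 50 after the start. No match of one kind overlapped one of another kind in these promoters. The Cdc20 promoter has a CHR whose first base lies 18 bases before the start, with a CCAAT box on either side, at 53 and 8 bases. Ccnf has a CHR at 14 bases and Cdk1 at 15, both with further CHR and CCAAT matches upstream. Ccnb2 has 3 CCAAT boxes, at 87, 54 and 21 bases. Its printed CHR lies farther upstream, at 167 bases. Another Ccnb2 CHR begins at base 5 after the start, outside the printed sequence. Cdk1 alone of these 4 also holds an E2F site, at 131 bases. The windows of Mybl2 and Cdk6 hold no match, which says only that these letters are not in them.

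By role, the 12 promoters of the S/G2, mitotic entry and APC/C activator groups held a CCAAT box in 10 (83.3%) and a CHR in 6 (50%), and 7 (58.3%) held at least 2 CCAAT boxes. Of all 32851 promoters of the reference table, 37.4% held a CCAAT box, 19.2% a CHR and 11.7% at least 2 CCAAT boxes. E2F sites stood in 7 of the 44 member promoters (15.9%), those of Cdc25a, Cdk1, Cdk2, E2f2, E2f3, E2f7 and Rbl1, and in 2.26% of all promoters. Of the 12 promoters of CDKs grouped below as acting mainly on transcription or as other CDKs, 0 held an E2F site, 1 a CHR and 4 a CCAAT box. With only the bases before the start, the late-cycle promoters with a CHR were 4 of 12 (33.3%), beside 17.1% of all promoters. These are counts of letters, and binding was not measured.

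CDKs that act mainly on transcription were near level through day 6 and differed by less than the rule in iPSCs. Of Cdk7, Cdk8, Cdk9, Cdk10, Cdk12, Cdk13 and Cdk19, none passed the rule in any contrast. Their differences of iPSCs from MEFs ran from -0.81 (Cdk10, 13.4 and 7.19 FPKM) to 0.62 (Cdk12, 18.9 and 29.5 FPKM), with a median of 0.09. Cdk8, the kinase of the Mediator complex, was at 16.2, 16.6, 17.0 and 17.3 FPKM, and Cdk9, the kinase that releases paused RNA polymerase, at 13.5, 13.6, 13.3 and 16.0 FPKM. Both stayed almost flat across the stages at which the cyclins parted.

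Among the other CDKs, 2 of the 6 that reached 1 FPKM were lower in iPSCs, against MEFs, and 0 higher, a share near the 25% of all rows that were lower. Cdk14, a membrane-associated kinase of Wnt signalling, was at 11.4, 15.1, 13.8 and 3.06 FPKM (-1.61). Cdk5, best known from neurons, was at 18.3, 16.1, 14.0 and 8.36 FPKM (-1.04), lower at each later stage, and was within the rule under each of the 3 rescalings. The remaining 4, Cdk16, Cdk17, Cdk18 and Cdk20, had differences between -0.49 and 0.06.

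Differences among the early libraries were small. At day 6 all 8 members of the mitotic entry group with at least 1 FPKM were above their MEF values, with a median log2 difference of 0.24 and a range of 0.16 to 0.53. In the other late-cycle groups, Fbxo5 (-0.06), Fzr1 (-0.07) and Ccna1 (-0.01) were slightly below MEFs at day 6. Rescaling to the same total changed the ratio of day 6 to MEFs by a log2 factor of 0.11. The signs of those differences are thus not reliable, and Ccna1 was near 0, at 0.0802 and 0.0757 FPKM. At day 3 Cdk1 (-0.10), Fbxo5 (-0.16), Fzr1 (-0.11) and Ccna1 (-0.09) were below MEFs. Over all rows compared the median at day 6 was -0.02, and 46.6% were above MEFs. Among all members, 33 of 48 (68.8%) were above MEFs at day 6. Of the 50 members that reached 1 FPKM, 25 (50%) were higher at day 3 than in MEFs and higher again at day 6, as were 19.4% of all such rows. All these differences were within the rule, and without replicates it is not known how far 2 libraries of the same stage would differ.

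Neighbouring genes of the pathway were counted from lists made by function, with earlier results of these data known. Of 20 replication genes known as E2F targets, the iPSC library had 17 higher and 0 lower than the MEF library (median 1.83). Of 20 mitotic kinases and late-cycle genes 20 were higher (median 2.09). Beside them, 21.1% of all rows compared were higher and 25% lower, with a median of -0.05. Cdca7, at 2.98, 4.25, 5.17 and 66.4 FPKM, and the licensing factor gene Cdt1, at 5.14, 5.34, 6.34 and 68.5, differed most in the first list. In the second these were the spindle checkpoint genes Bub1, at 13.1, 12.6, 15.5 and 121 FPKM, and Bub1b, at 12.0, 12.5, 16.5 and 105. Both lists had medians near those of the S/G2 (2.01) and mitotic entry (1.86) members.

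Most genes of a list of protein partners of E2F and B-MYB, with Foxm1 and the other MYB genes, were within the rule. Of its 10 genes, 9 were compared between iPSCs and MEFs, with 1 higher and 0 lower. Of all rows compared, 21.1% were higher and 25% lower. The higher gene was the histone-binding gene Rbbp4, with 68.9, 67.2, 70.2 and 142 FPKM. Foxm1 lay just under the rule (0.98), at 9.12, 12.5, 12.3 and 19.0 FPKM. Of 7 CDK inhibitors, 4 were lower and 1 was higher in iPSCs, against MEFs (median -1.51). The INK4 genes, which code for inhibitors of CDK4 and CDK6, included Cdkn2a at 84.7, 67.7, 74.2 and 9.65 FPKM and Cdkn2b at 41.3, 34.0, 51.0 and 8.39. Each value is that of a whole gene, and different transcripts of a gene were not told apart. The gene that was higher was Cdkn1c, an imprinted inhibitor, at 3.20, 1.59, 0.982 and 19.5 FPKM. It was also the only gene of the neighbouring lists past the rule within the first 6 days, lower at day 6 than in MEFs (-1.08).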

How the data were processed

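Long RNA libraries from 4 stages were used, 1 library per stage. The 4 small RNA samples of the series are not analysed here. Values are FPKM, deposited by the authors as 1 column per stage, per the file headers. The submitters' processing notes name HISAT2, Cufflinks and the genome build mm9, without role or version. The sources used here do not give gene models, strand setting or pooling. Columns summed to 438130 to 486609 FPKM, and FPKM is a share of a library.

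Computation used Python 3.11.15 and pandas 2.3.3. Differences are of log2(FPKM + 1). The rule of size needs a difference of 1 (2-fold) and 1 FPKM in the higher library. Its code was run on simulated data, which cannot show how often the rule errs in these libraries. Percentiles and stage counts use the 13101 rows with at least 1 FPKM in any library. Values in all libraries are given for every member past the rule and for the main cyclins, CDKs, RB, E2F and Cdc25 genes whatever their values, and up to 2 genes per direction and pathway list. The other members are given by range, with up to 6 examples. Members and lists were chosen with earlier results of these data known. The shares over cyclin classes, counts of 2 CCAAT boxes and promoters shown were chosen after the values were seen. A planned comparison of protein sequences was not made.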

Additional observations from a re-analysis of the deposited data

How the results depend on the processing

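No paired analysis was possible because each stage had 1 library, and no library could be left out for the same reason. Summing rows of 1 symbol was not run, since no member had more than 1 row. Of 90 counts under alternatives, 79 stayed within 1.5 times the reported count or stayed at 0. The reported counts of the first 6 days were all 0, and most of them stayed so. The 79 thus says little about how stable the counts in iPSCs were. A 1.5-fold rule gave 1 of 48 members higher (Ccnd1) at day 6 against day 3 and 1 of 48 against MEFs. Of all rows compared, 1.84% and 2.4% were higher by that rule. It gave 10 of 50 members lower in iPSCs against day 6, beside 33.4% of all rows. Ccnd1 was also the 1 member higher at day 6 than in MEFs after rescaling to the same upper quartile or to the same total. Of all rows, 0.831% and 1.49% were higher there. A log2 difference of 2 gave 5 higher and 2 lower of 50 members in iPSCs against day 6, and 7 higher and 2 lower against MEFs. Of all rows, 6.79% were higher and 9.47% lower against day 6, and 7.07% and 9.89% against MEFs. A pseudocount of 5 gave 12 higher and 4 lower of 50 against MEFs, as it shrinks differences of low values. Of all rows, 11.6% were then higher and 15.3% lower. Of 300 group medians 296 moved by less than 1.5-fold. Of the 300, 180 were of contrasts without iPSCs, where differences were small, and none of these moved further. The 296 thus says little about the medians in iPSCs, to which the 4 others belong. Small medians could also change sign within that limit, as that of the RB family in iPSCs against MEFs did (-0.02, and 0.15 at the same upper quartile). The D-type cyclin group had -1.10 against day 6 and -0.95 against MEFs at a pseudocount of 5 (-1.84 and -1.64 as reported), and the S/G2 group 3.10 and 3.60 at a pseudocount of 0.1 (1.98 and 2.01). No member past the rule in iPSCs against MEFs could change direction under the other pseudocounts or the 3 rescalings. A pseudocount keeps the sign of a difference. The rescalings changed the ratio of these 2 libraries by a log2 factor of at most 0.18, which is below the rule. With only the bases before the start, the share of late-cycle promoters with a CHR was 33.3% in place of 50%, and the shares over all member promoters and over all promoters moved by less than 1.5 times. Low values, such as those of Ccna1 and E2f2, are the least precise, most of all in the shallower day 3 library.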

Other observations

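The remaining lists of the pathway were close to level. In iPSCs against MEFs, 21.1% of all rows compared were higher and 25% lower. Of 21 other cyclins and cyclin-like genes, 19 were compared between iPSCs and MEFs, 3 were higher and 1 lower. Cntd1, known from meiotic crossover formation, was at 0.173, 0.140, 0.295 and 5.53 FPKM in order of stage, and Ccnjl at 0.00680 in MEFs and 1.98 in iPSCs, where it was listed at 0 at day 3. Ccnyl1, a cyclin Y relative, was at 8.21, 9.08, 7.85 and 2.95 FPKM. Of 15 APC/C subunits and partner enzymes found, 2 were higher and 1 lower. The higher ones were both ubiquitin-conjugating enzymes of the complex, Ube2c at 41.1, 39.8, 42.3 and 158 FPKM and Ube2s at 37.5, 33.1, 33.9 and 136, while the subunit gene Anapc16 was at 35.6, 32.6, 31.4 and 14.6. Of 9 SCF ligase genes 1 was higher, the deubiquitinase gene Usp28 at 3.44, 3.91, 3.83 and 25.1 FPKM, and 1 lower, the F-box gene Fbxl2 at 11.5, 9.74, 8.92 and 3.95.

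Cdk4 was among the most abundant transcripts in every library, at percentile 98.0 in MEFs and 98.6 in iPSCs, while its partner cyclins differed in rank. Ccnd2 was at percentile 94.4 in MEFs and 27.5 in iPSCs. Ccnd1 stood at 0.324 of the Cdk4 level in MEFs, 0.655 at day 6 and 0.0495 in iPSCs.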
